A study of Mus musculus with 12 samples.

Results

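The core histone genes encode the proteins that package DNA into nucleosomes, together with the linker histones that bind the DNA between nucleosomes. Their transcripts were followed in RAW 264.7 cells, a mouse macrophage-like line that grows attached to the dish and was derived from an Abelson virus-induced tumour. Members were the transcript clusters, the array's units of measurement for a gene, whose single gene symbol was a histone gene. There were 40 such clusters of 41345 on the array, and they covered 38 genes. Genes were tested where the mean signal over all arrays lay above log2 2.01, the 40th percentile of all clusters, and 30 histone genes of 14611 genes in all passed. The members just inside that level were H2aw (2.10), H2bc21 (2.04) and H2bc22 (2.04), and the member just outside was H4c2 (1.96).

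The cells had been transfected for 48 h with an irrelevant scramble oligonucleotide (Scramble), with pre-miR-223, a mimic meant to add miR-223 activity (Pre-miR-223), or with anti-miR-223, an inhibitor of miR-223 (Anti-miR-223). There were 4 arrays in each of the 3 groups, numbered in their titles as biological replicates. All cells come from the same established, virally transformed line, were grown to confluency and went through transfection, the controls included. The labels do not say what separated the replicates, so the tests measure the spread between these samples.

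Replication-dependent histone genes lie in clusters in the genome, have no introns and are transcribed when DNA is copied in S phase. Their messengers end in a stem-loop in place of a poly(A) tail, which is bound by the protein Slbp and is formed with the help of the U7 small nuclear ribonucleoprotein. Variant histones such as H2A.Z are mostly made from polyadenylated messengers throughout the cell cycle and are placed into chromatin by dedicated chaperones. The labelling kit primes along the whole transcript and not from the poly(A) tail, so both kinds of messenger can be measured. Germline histones serve sperm or oocyte chromatin.

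Of the 38 genes, 25 were replication-dependent (21 tested), 5 were somatic variants (all tested), 6 were germline forms (3 tested) and 2 were pseudogenes (1 tested). The replication-dependent genes comprised 4 linker H1 genes, 6 H2A genes, 7 H2B genes and 8 H4 genes. No H3 gene had a cluster of its own, because those clusters carry several gene symbols and name no gene. H4c2, H4c1, H2ac15 and H2ac12 were replication-dependent genes below the level, as were the germline forms H1f6, H1f7 and H2bc1 and the pseudogene H2bu1-ps. Histone paralogs are nearly identical in sequence, so a signal assigned to 1 of them may hold RNA of others, and the values of single genes carry that uncertainty.

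The oligonucleotides were directed at miR-223, a microRNA known from neutrophils and macrophages that pairs with its targets through its seed. The mature strand is shown because it is the sequence that the mimic adds and the inhibitor binds. RefSeq places it at chrX:96242884-96242905 on the plus strand of GRCm38.p6, and the capitals mark the seed, bases 2 to 8.

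mmu-miR-223-3p: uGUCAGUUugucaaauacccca

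The microRNA's own gene shares its cluster with another symbol, and whether the mimic or inhibitor arrived was not measured here.

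The label of a macrophage line was set against marker genes. All 10 macrophage markers lay above the level, with means between 5.96 and 11.19 on the log2 scale. Of the fibroblast markers 3 of 6 (Col1a1, Col1a2 and Col3a1) and of the epithelial markers 3 of 5 (Cdh1, Krt18 and Krt8) lay above it, with the highest means at 2.53 and 3.52. Of the 6 lymphoid markers, Nkg7 lay above it at 2.92. One array, Anti-miR-223 replicate 4, differed from the rest. Across genes, which are not independent replicates, it correlated with the other 11 at a median of 0.967, where those lay between 0.988 and 0.992. The comparisons below give values without it beside those with all arrays.

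On the 11 other arrays the histone signals were stable. The SD within groups had a median of 0.18 over the 21 replication-dependent genes and of 0.21 over the 5 variants, against 0.17 over all genes tested. For the 11 replication-dependent genes with a mean above log2 5 it was 0.14, against 0.16 for all genes above that level. With all 12 arrays these medians were 0.28 for the replication-dependent genes, 0.33 for those above log2 5, 0.24 for the variants and 0.19 for all genes.

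**Figure D1:**
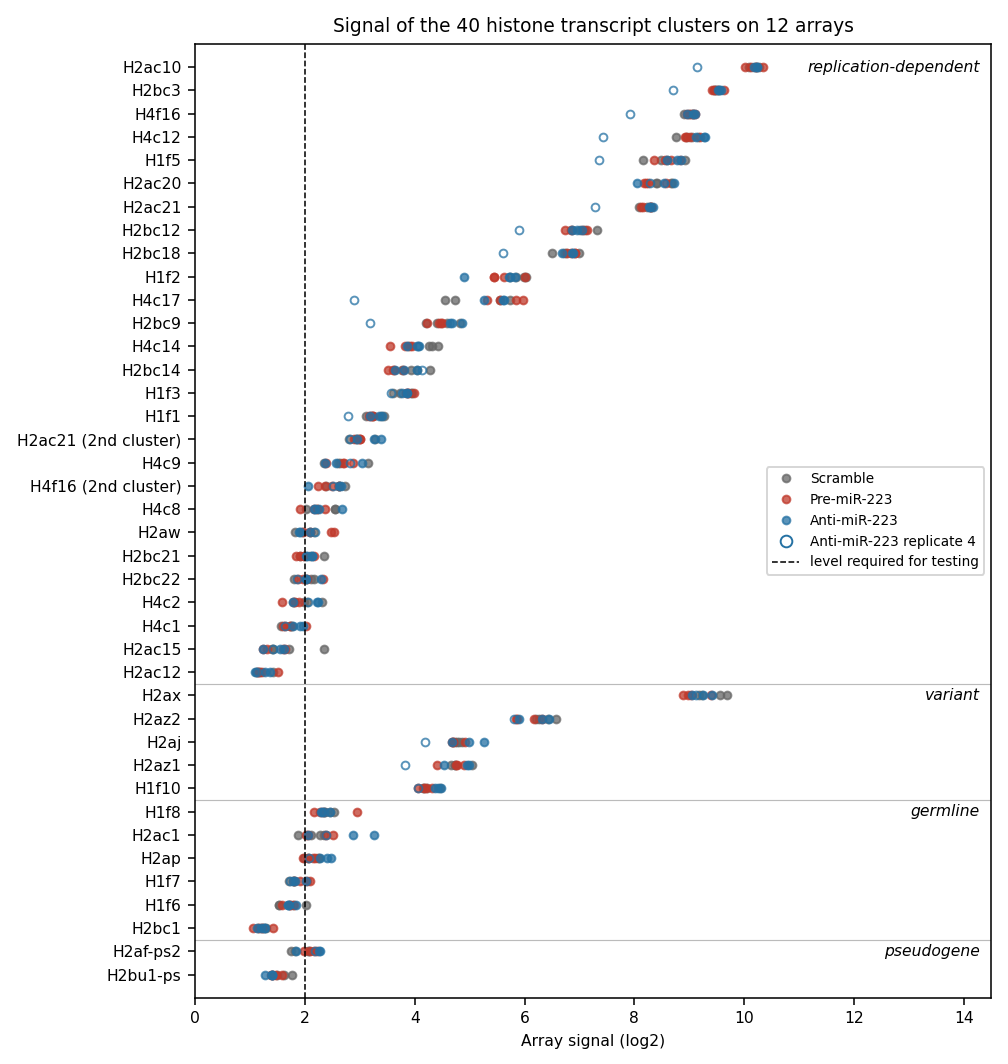
Signal of each of the 40 histone clusters (log2, horizontal axis) on each array, with genes on the vertical axis by class; grey, red and blue points stand for Scramble, Pre-miR-223 and Anti-miR-223, and open circles for Anti-miR-223 replicate 4. The dashed line is the level required for testing, log2 2.01, and the open circles of H2ac10, H4c12 and H4c17 lie at 9.14, 7.43 and 2.90, left of every filled point of their gene; levels of different genes are not comparable, because each has its own probes.

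Anti-miR-223 replicate 4 had a low signal for most replication-dependent histones with a bright cluster. It was the lowest of the 12 arrays for 12 of 21 replication-dependent genes, against 13.5% of all genes tested, and for 9 of the 11 above log2 5. Pre-miR-223 replicate 4, the lowest array for 19.1% of all genes, was lowest for 1 of the 21. Relative to the scramble mean, the median replication-dependent gene lay at -0.50 on that array and between -0.15 and 0.12 on the other 11. For the genes above log2 5 the median was -1.09, against -0.17 to 0.13. The median of all genes tested was 0.06 on that array and lay between -0.10 and 0.05 on the others. In bulk RNA, fewer cells in S phase and less histone RNA per cell cannot be told apart.

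Other RNA classes also differed on that array. The 76 small nucleolar RNA genes were taken by the symbols of small nucleolar and Cajal body RNAs. Such RNAs mostly guide the modification of other RNAs and are not polyadenylated either. Their median was -1.48 on that array and lay between -0.19 and 0.29 elsewhere, and 69 of the 76 were lowest there. The 24 tested S phase markers had a median of 0.07 on that array, against -0.24 to 0.15 on the others, so the list as a whole was not low. The 10 macrophage markers had a median of 0.51, against -0.34 to 0.14. Their summed log2 signal lay between 85.8 and 88.3 in Scramble, 84.3 and 87.4 in Pre-miR-223 and 84.4 and 91.2 in Anti-miR-223, and none was below the level. The part of these classes in the histone result was not tested.

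**Figure D2:**
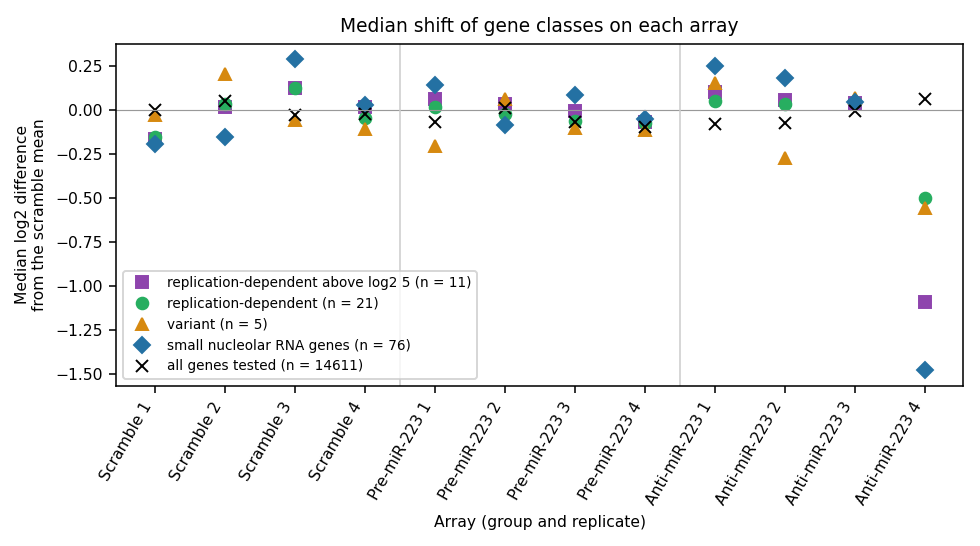
Median log2 difference from the scramble mean (vertical axis) on each of the 12 arrays (horizontal axis) for replication-dependent histones, those with a mean above log2 5, variant histones, small nucleolar RNA genes and all genes tested. On Anti-miR-223 replicate 4 the medians were -0.50, -1.09, -0.56, -1.48 and 0.06 in that order, while no class lay beyond 0.29 to either side of 0 on another array.

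Linker histones of the H1 family bind the nucleosome where DNA enters and leaves and help to compact chromatin. H1f5, known before as Hist1h1b, had signals of 8.16, 8.60, 8.91 and 8.49 on the Scramble arrays, of 8.83, 8.56, 8.35 and 8.66 on the Pre-miR-223 arrays and of 8.85, 8.77, 8.59 and 7.36 on the Anti-miR-223 arrays. The groups overlapped, and the last array lay 1.26 (log2), or 2.39-fold, below the mean of the other 11. H1f2 (Hist1h1c) had signals of 5.74, 5.99, 6.03 and 5.85 in Scramble, of 5.45, 6.01, 5.63 and 5.44 in Pre-miR-223 and of 5.82, 4.89, 5.72 and 5.73 in Anti-miR-223. Here replicate 4 of Anti-miR-223 was not low, differing by 0.04 from the other arrays, and replicate 2 was the lowest. H1f1 (Hist1h1a) and H1f3 (Hist1h1d), both dimmer, lay at 2.79 and 3.56 on Anti-miR-223 replicate 4, against 3.12 to 3.43 and 3.61 to 3.99 on the other arrays.

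The 120 bases before the annotated start of these 4 genes are printed to show the elements that linker histone promoters share. They come from RefSeq's GRCm38.p6 promoter windows, at chr13:21780626-21780745 (minus strand) for H1f5, chr13:23763548-23763667 (plus) for H1f1, chr13:23554912-23555031 (plus) for H1f3 and chr13:23738687-23738806 (plus) for H1f2. Capitals mark matches, on either strand, to the TATA box letters TATAAA, to CCAAT and to the octamer ATTTGCAT; the 3 motifs did not overlap one another in these windows.

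H1f5: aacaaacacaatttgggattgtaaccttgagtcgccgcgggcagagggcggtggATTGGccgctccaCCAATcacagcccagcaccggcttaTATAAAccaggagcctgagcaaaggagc

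H1f1: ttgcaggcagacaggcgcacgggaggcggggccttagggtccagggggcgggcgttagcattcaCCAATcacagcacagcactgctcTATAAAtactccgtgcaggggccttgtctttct

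H1f3: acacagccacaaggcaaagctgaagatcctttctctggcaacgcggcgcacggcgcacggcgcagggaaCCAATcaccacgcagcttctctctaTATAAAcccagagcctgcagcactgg

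H1f2: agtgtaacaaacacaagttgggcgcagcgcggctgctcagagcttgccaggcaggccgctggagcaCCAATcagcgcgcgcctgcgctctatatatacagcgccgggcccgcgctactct

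All 4 linker genes held CCAAT, and TATAAA began 28, 33 and 26 bases before the start of H1f5, H1f1 and H1f3. Over the 300-base windows (250 bases before and 50 after the start) of 32851 RefSeq entries, both strands searched, 13.6% held TATAAA, 37.4% held CCAAT and 1.74% held ATTTGCAT. Of the 23 replication-dependent members with a window, 14 held TATAAA, 17 held CCAAT and 7 held ATTTGCAT. These matches describe the letters and are no evidence of binding.

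H2A and H2B pair as a dimer in the nucleosome. H2ac10 (Hist1h2af) had signals of 10.09, 10.21, 10.20 and 10.28 in Scramble, of 10.35, 10.12, 10.22 and 10.02 in Pre-miR-223 and of 10.23, 10.24, 10.17 and 9.14 in Anti-miR-223. The other 11 values lay between 10.02 and 10.35 and the last lay 2.08-fold below their mean. H2ac21 (Hist2h2ab) gave the same picture, at 8.09 to 8.34 on the other arrays and at 7.29 on Anti-miR-223 replicate 4. A second, dim cluster of H2ac21, with a mean of 3.02, was at 2.82 on that array and was not the lowest there.

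H2ac20 (Hist2h2ac), another H2A gene, was not low on that array. Its signals were 8.39, 8.69, 8.66 and 8.42 in Scramble, 8.25, 8.57, 8.17 and 8.21 in Pre-miR-223, and 8.72, 8.05, 8.55 and 8.28 in Anti-miR-223. Its value on Anti-miR-223 replicate 4 was 0.14 below the mean of the other arrays and inside their range. H2aw (Hist3h2a), a dim member, was at 2.19 there, against 1.82 to 2.53.

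The brightest H2B cluster was H2bc3 (Hist1h2bb), at 9.48, 9.54, 9.45 and 9.49 in Scramble, at 9.51, 9.46, 9.64 and 9.41 in Pre-miR-223 and at 9.57, 9.52, 9.54 and 8.71 in Anti-miR-223. Its last value lay 1.75-fold below the mean of the other 11, whose range was 9.41 to 9.64. H2bc12 (Hist1h2bk) lay between 6.75 and 7.32 on the other arrays and at 5.89 on Anti-miR-223 replicate 4, a 2.15-fold difference from their mean. H2bc18 (Hist2h2bb) lay between 6.50 and 6.99 and at 5.61, 2.29-fold below. H2bc9 (Hist1h2bh), chosen for mention after its values were seen, lay between 4.21 and 4.86 and at 3.19. H2bc14 (Hist1h2bm) went the other way, with 4.14 on Anti-miR-223 replicate 4 against 3.52 to 4.27 and a difference of 0.32 above the mean of the others.

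Upstream sequences of 4 H2B genes are printed because 3 of them were low on that array and 1 was not. The windows are at chr13:23746614-23746733 (H2bc3), chr13:22035701-22035820 (H2bc12), chr3:96269580-96269699 (H2bc18) and chr13:21721924-21722043 (H2bc14), all on the plus strand of GRCm38.p6, with capitals as above.

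H2bc3: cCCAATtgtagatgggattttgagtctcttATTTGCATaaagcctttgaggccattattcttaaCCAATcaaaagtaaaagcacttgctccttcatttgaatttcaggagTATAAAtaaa

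H2bc12: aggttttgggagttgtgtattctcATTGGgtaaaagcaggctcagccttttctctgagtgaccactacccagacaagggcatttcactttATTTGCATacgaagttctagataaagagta

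H2bc18: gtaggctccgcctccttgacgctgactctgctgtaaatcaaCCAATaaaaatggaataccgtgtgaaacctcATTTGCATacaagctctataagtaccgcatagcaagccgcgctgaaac

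H2bc14: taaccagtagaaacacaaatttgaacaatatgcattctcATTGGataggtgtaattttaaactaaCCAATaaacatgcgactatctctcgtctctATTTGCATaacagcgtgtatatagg

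Each held CCAAT or its reverse complement and the octamer ATTTGCAT, known as the binding site of octamer factors in H2B promoters. The octamer began 90, 30, 48 and 25 bases before the annotated start in H2bc3, H2bc12, H2bc18 and H2bc14. Among replication-dependent members with a window, 4 of 6 H2B genes and 3 of 6 H2A genes held the octamer, and none of 4 H1 or 7 H4 genes did. H2bc14 shared both motifs with the printed H2B genes that were low. H2bc9, which was also low there and is not printed, held CCAAT in its window but not the octamer. Whether these motifs bear on the signal on that array was not tested.

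H4 pairs with H3 at the core of the nucleosome. H4c12 (Hist1h4k) had signals of 8.75, 8.96, 9.16 and 9.06 in Scramble, of 9.20, 8.93, 8.95 and 9.01 in Pre-miR-223 and of 9.27, 9.29, 9.13 and 7.43 in Anti-miR-223. The last lay 3.11-fold below the mean of the others. H4f16 (Hist4h4) lay between 8.91 and 9.11 on the other arrays and at 7.92 on that one, 2.16-fold below. A second, dim cluster of H4f16, with a mean of 2.49, was at 2.51 there.

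H4c17 (Hist1h4m) varied most among the replication-dependent genes. Its signals were 4.73, 4.55, 5.74 and 5.56 in Scramble, 5.97, 5.32, 5.55 and 5.84 in Pre-miR-223, and 5.63, 5.60, 5.27 and 2.90 in Anti-miR-223. Replicate 4 of Anti-miR-223 lay 5.79-fold below the mean of the others, and Scramble replicates 1 and 2 were the next lowest. H4c14 (Hist2h4) was at 4.32, 4.26, 4.43 and 3.88 in Scramble, at 3.96, 3.92, 3.54 and 3.82 in Pre-miR-223 and at 4.07, 4.05, 3.86 and 4.04 in Anti-miR-223, so it was not low on the array that stood apart.

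**Figure D3:**
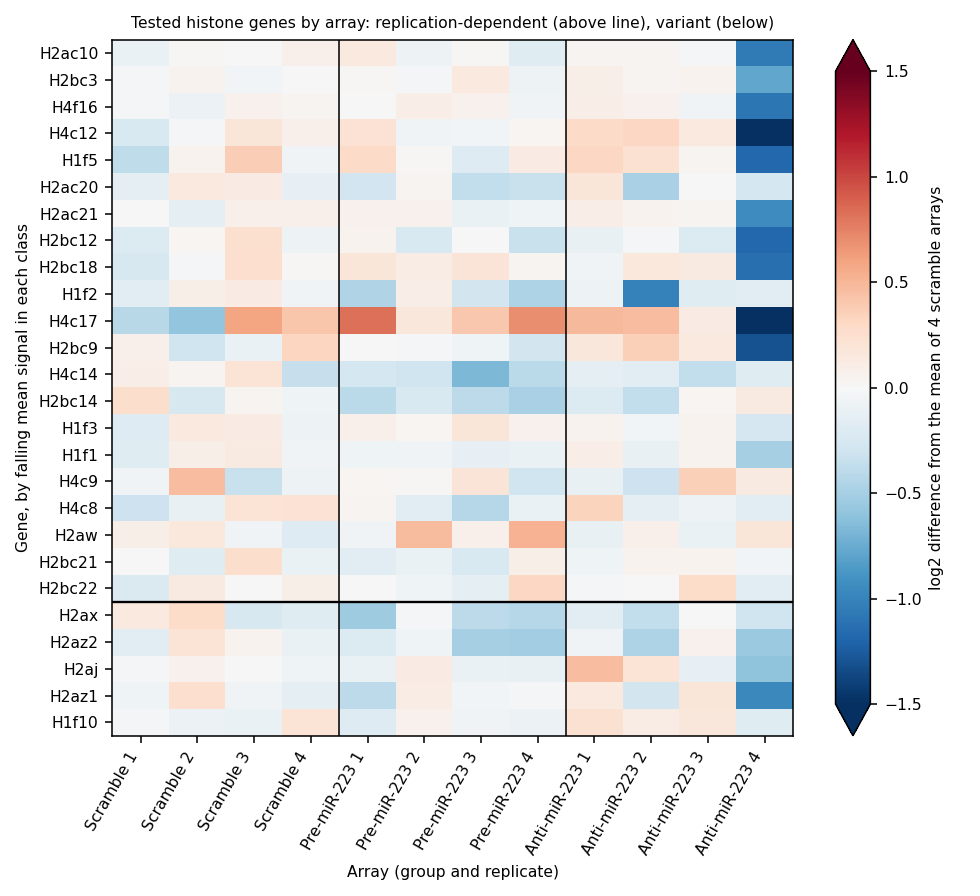
Log2 difference of each tested replication-dependent gene (above the line) and variant gene (below it) from its mean over the 4 Scramble arrays, by array; genes run from bright to dim within a class and the colour scale ends at 1.5 to either side. The last column, Anti-miR-223 replicate 4, is dark blue for most bright replication-dependent genes (9 of 11 were lowest there), and pale for H2ac20 and H1f2.

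Clusters with several symbols, at least 1 of them a histone, numbered 46, of which 35 lay above the level; they hold the H3 genes and name no single gene. Among the 9 above the level whose symbols were all replication-dependent H3 genes, 6 were lower on Anti-miR-223 replicate 4 than the mean of the other arrays. Their differences ran from -1.54 to 1.35 with a median of -0.22. Of the 8 distinct H2A clusters of this kind 7 were lower there, with a median of -0.18. All 5 distinct H2B clusters and both H4 clusters were lower too, with medians of -0.48 and -0.71. Of the 7 clusters holding H3.3, a variant of H3 placed outside replication, with its pseudogenes, 6 were lower, with a median of -0.15 and a lowest value of -2.05. Clusters with several symbols were not tested. The H3.3 cluster with that lowest value, chosen after its values were seen, was at 6.18, 6.06, 7.05 and 6.77 in Scramble. In Pre-miR-223 it was at 7.67, 6.45, 7.63 and 7.55. A dimmer one, chosen likewise, was at 4.32, 4.02, 5.04 and 4.99 and at 5.99, 4.72, 5.75 and 6.00. The brightest was at 10.13, 10.50, 10.30 and 10.31 and at 10.20, 10.23, 10.09 and 10.09.

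The 5 somatic variants had a median of -0.56 relative to Scramble on that array, against -0.27 to 0.21 on the others, and 3 of them were lowest there. H2ax, which marks DNA breaks when phosphorylated, was at 9.56, 9.69, 9.17 and 9.24 in Scramble, at 8.89, 9.40, 9.03 and 8.99 in Pre-miR-223 and at 9.25, 9.05, 9.42 and 9.12 in Anti-miR-223. Its value on Anti-miR-223 replicate 4 differed by -0.13 from the mean of the others. H2az1 and H2az2 encode the 2 forms of H2A.Z, which is found around transcription starts. H2az1 was at 4.73, 5.05, 4.74 and 4.67 in Scramble, at 4.41, 4.91, 4.75 and 4.77 in Pre-miR-223 and at 4.95, 4.53, 4.98 and 3.83 in Anti-miR-223, the last 1.92-fold below the mean of the others. H2az2 was at 6.21, 6.58, 6.43 and 6.26, at 6.17, 6.31, 5.87 and 5.85, and at 6.32, 5.91, 6.44 and 5.81 in the same order of groups. Its 3 lowest values came from Pre-miR-223 and Anti-miR-223 arrays. H2aj lay between 4.68 and 5.26 on the other arrays and at 4.19 on that one. H1f10, a linker variant known before as H1fx, lay between 4.06 and 4.48 and at 4.07.

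The first comparison, Pre-miR-223 against Scramble, asks which transcripts differ when miR-223 activity is added. The 30 tested histone genes differed little. The replication-dependent genes split into 9 higher and 12 lower, with a median difference of -0.01 on the log2 scale, against -0.05 over all genes tested. Of all genes tested, 65.2% were lower in this comparison. Under the 3 other scalings 11 or 12 of the 21 were higher. The share of all genes that were lower was then 43.0% under median centring, 60.6% under repeated quantile normalization and 52.1% under cyclic loess. All 5 variants had lower means, with a median of -0.09, although H2aj was higher under each of the 3 other scalings tried, and H1f10 under median centring and cyclic loess and H2az1 under cyclic loess. By limma, with Benjamini-Hochberg adjustment over 14611 genes, 0 of 30 histone genes and 0.0% of all genes passed at 0.05, and the lowest adjusted p among all genes was 0.920.

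At an unadjusted p under 0.05, 3 of 30 histone genes were lower and 0 were higher, against 4.87% of all genes, 3.85% lower and 1.02% higher. They were H4c14, H2bc14 and H2ax. H4c14 averaged 4.22 ± 0.24 (SD, n = 4) in Scramble and 3.81 ± 0.19 in Pre-miR-223. Its difference was -0.41 (95% confidence interval -0.69 to -0.13; limma, adjusted p = 0.921), and the highest Pre-miR-223 array lay above the lowest Scramble array. H2bc14 was at 4.27, 3.77, 4.04 and 3.94 in Scramble and at 3.60, 3.78, 3.62 and 3.52 in Pre-miR-223. The groups overlapped by 1 array each, and the difference was -0.37 (-0.66 to -0.09; limma, adjusted p = 0.921). H2ax averaged 9.42 ± 0.25 and 9.07 ± 0.22, a difference of -0.34 (-0.66 to -0.03; limma, adjusted p = 0.921). Under each of the 3 other scalings no variant had an unadjusted p under 0.05.

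H2az2 averaged 6.37 ± 0.17 (SD, n = 4) in Scramble and 6.05 ± 0.23 in Pre-miR-223, a difference of -0.32 (-0.66 to 0.02). H2ac20 differed by -0.24 (-0.56 to 0.08), H1f2 by -0.27 (-0.68 to 0.14) and H2aw by 0.25 (-0.05 to 0.55). The bright genes H2bc3, H4f16 and H4c12 differed by 0.02 (-0.33 to 0.37), 0.03 (-0.41 to 0.47) and 0.04 (-0.64 to 0.72). H4c17 had the widest interval, 0.52 (-0.53 to 1.57). The groups did not overlap for 0 of 30 histone genes, against 2.98% of all genes. For 29 of 30 genes the interval excluded a 2-fold difference in either direction, H4c17 being the exception. The fit shares its spread with Anti-miR-223, and without replicate 4 of that group 5 of 30 genes had an unadjusted p under 0.05, 4 lower (with H2az2 added) and 1 higher (H4c17). The shares of all genes were 9.38%, 7.64% lower and 1.74% higher, and 0 of 30 passed adjustment.

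**Figure D4:**
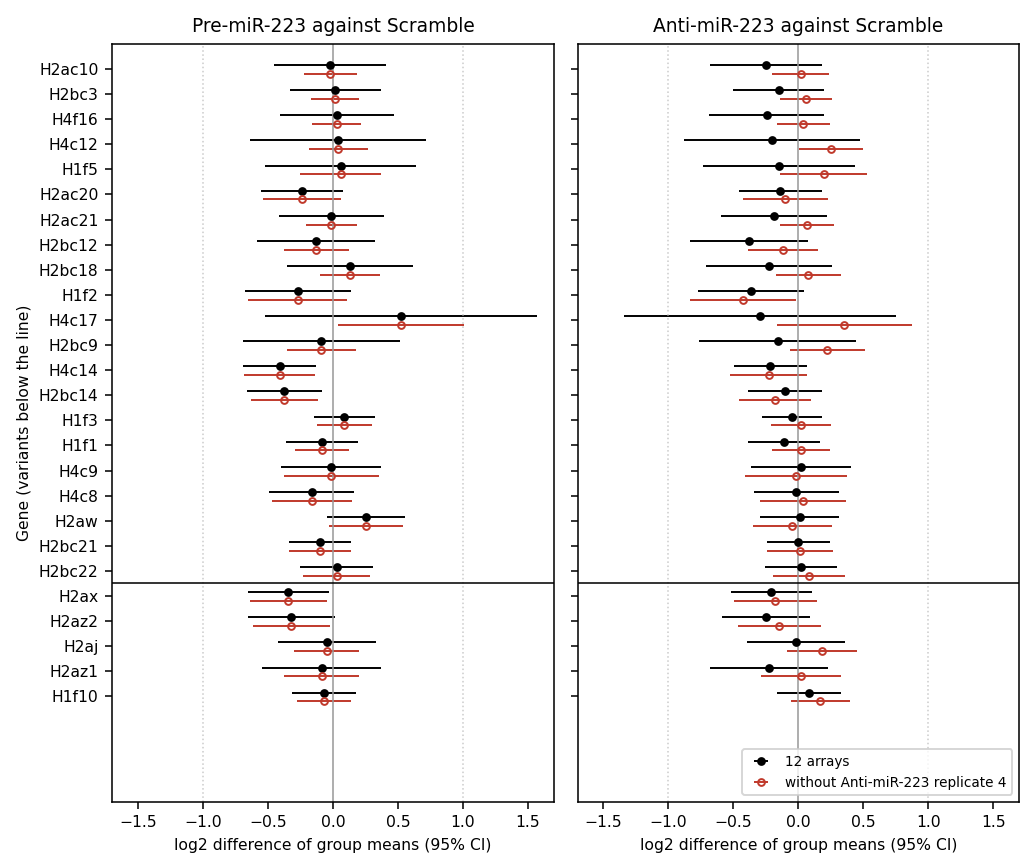
Log2 difference of group means (horizontal axis) with its 95% confidence interval, for Pre-miR-223 and for Anti-miR-223 against Scramble. Each tested replication-dependent gene is shown and, below the line, each variant. Black points use 12 arrays and red open points leave out Anti-miR-223 replicate 4; dotted lines mark 2-fold, and on the right the red points of H4c12 and H1f5 lie at 0.25 and 0.20 where the black points lie at -0.20 and -0.15.

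The second comparison, Anti-miR-223 against Scramble, asks the same for a loss of miR-223 activity and uses the same Scramble arrays. With all arrays the replication-dependent genes leaned low, with 4 higher and 17 lower and a median of -0.15 against -0.01 over all genes. Without replicate 4 of Anti-miR-223 the split was 14 higher and 7 lower, with a median of 0.02 against -0.05 over all genes. The variants had a median of -0.21 with that array (1 higher, 4 lower) and of 0.02 without it (3 higher, 2 lower). Of all genes tested, 52.5% were lower with that array and 63.6% without it. By limma 0 of 30 histone genes passed adjustment, as did 0.0% of all genes, and the lowest adjusted p among all genes was 0.988.

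H2ac10 averaged 9.95 ± 0.54 (SD, n = 4) in Anti-miR-223 and 10.22 ± 0.04 (n = 3) without that array, against 10.20 ± 0.08 in Scramble. The difference went from -0.25 (-0.68 to 0.18) to 0.02 (-0.20 to 0.24). H4c12 went from -0.20 (-0.88 to 0.48) to 0.25 (0.00 to 0.50), H2bc12 from -0.38 (-0.84 to 0.07) to -0.12 (-0.39 to 0.15) and H4c17 from -0.30 (-1.34 to 0.75) to 0.35. H1f2 moved little, from -0.36 (-0.77 to 0.04) to -0.43 (-0.84 to -0.02), its lowest array being replicate 2. H4c14 differed by -0.22 with that array and by -0.23 without it.

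At an unadjusted p under 0.05, 1 of 30 histone genes passed with all arrays, against 2.01% of all genes (0.664% higher). It was H2ac1, a germline H2A, with a difference of 0.49 (0.02 to 0.96). It did not pass adjustment. Its signals were 2.36, 1.88, 2.11 and 2.28 in Scramble and 2.88, 2.06, 3.26 and 2.39 in Anti-miR-223, near the level required for testing and overlapping. Without replicate 4, 4 of 30 passed, 3 higher and 1 lower, against 6.69% of all genes, 1.81% higher and 4.89% lower. H4c12, H2ac1 and H2ap, a germline H2A-related gene, were higher and H1f2 was lower; H2ap, at 1.99 to 2.25 in Scramble and 2.27 to 2.48 in the remaining Anti-miR-223 arrays, did not overlap between the groups, as was the case for 6.55% of all genes, 2.02% in that direction. With all arrays the groups of 0 of 30 genes did not overlap, against 1.55% of all genes. H1f8, the oocyte linker histone, and the pseudogene H2af-ps2 differed by -0.07 (-0.38 to 0.24) and 0.21 (-0.05 to 0.47).

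The third comparison set Pre-miR-223 against Anti-miR-223, and its groups are those of the comparisons above. With all arrays the replication-dependent genes had 15 higher and 6 lower in Pre-miR-223, with a median of 0.13 against -0.04 over all genes; without Anti-miR-223 replicate 4 they had 6 higher and 15 lower, with a median of -0.06 against -0.01. Of all genes tested, 62.8% were lower in Pre-miR-223 with all arrays and 52.2% without that array. The variants had a median of -0.07 and, without that array, of -0.17. With all arrays it was 0.01 under median centring and cyclic loess and -0.02 under repeated quantile normalization. By limma 0 of 30 histone genes and 0.0% of all genes passed adjustment, and the lowest adjusted p was 0.946. At an unadjusted p under 0.05, 0 of 30 passed, against 3.61% of all genes, and the groups of 0 of 30 did not overlap, against 1.67%.

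Without that array 4 of 30 genes had an unadjusted p under 0.05 and all 4 were lower in Pre-miR-223, against 4.89% of all genes and 2.82% lower. H2bc9 differed by -0.31, H1f10 by -0.24, H2ap by -0.30 and H2ac1 by -0.48. The first 3 did not overlap between the groups, as was the case for 4.84% of all genes, 2.53% in this direction. With all arrays H2bc14 differed by -0.27 (-0.56 to 0.01), H2aw by 0.24 (-0.06 to 0.55), H2bc18 by 0.35 (-0.13 to 0.84) and H4c17 by 0.82 (-0.23 to 1.87). Without that array the differences of H2bc18 and H4c17 were 0.05 and 0.17.

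Transcription and 3' end processing of replication-dependent histone messengers rest on a small set of factors, of which 19 of 23 listed genes were tested. In Pre-miR-223 against Scramble 3 were higher and 16 lower, with a median of -0.15 against -0.05 over all genes, of which 65.2% were lower. At an unadjusted p under 0.05, 1 (Lsm10) was lower, against 4.87% of all genes, 3.85% lower. Without Anti-miR-223 replicate 4 there were 2, both lower, against 9.38%, 7.64% lower. Lsm10, a protein of the U7 particle, averaged 5.30 ± 0.13 (SD, n = 4) in Scramble and 4.79 ± 0.44 in Pre-miR-223, a difference of -0.51 (-0.96 to -0.05; limma, adjusted p = 0.921). Slbp, which binds the stem-loop, differed by -0.11 (-0.31 to 0.09) and Npat, the coactivator that links cyclin E and Cdk2 to histone transcription, by -0.23 (-0.78 to 0.31). Casp8ap2 (FLASH), needed for processing, and Lsm11, the partner of Lsm10, differed by 0.06 (-0.27 to 0.38) and 0.01 (-0.32 to 0.34).

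In Anti-miR-223 against Scramble 2 of the 19 were higher and 17 lower, with a median of -0.09 against -0.01 over all genes; without replicate 4 all 19 were lower, with a median of -0.22 against -0.05. None had an unadjusted p under 0.05 with all arrays, against 2.01% of all genes. Without that array 2 did, both lower, against 6.69% of all genes, 4.89% lower. Hinfp, an activator of H4 genes, differed by -0.23 (-0.52 to 0.06). On Anti-miR-223 replicate 4 these factors did not follow the histones. Npat was at 6.55 there, 1.03 above the mean of the other arrays, and Slbp was at 7.29, 0.14 below it; the list's median relative to Scramble was 0.27. In Pre-miR-223 against Anti-miR-223, 6 were higher and 13 lower with all arrays, with a median of -0.07. Without that array 14 were higher and 5 lower, with a median of 0.07. With all arrays, 11 were higher and 8 lower under median centring and cyclic loess, and 7 and 12 under repeated quantile normalization.

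Histone chaperones escort newly made or exchanged histones to DNA, and 27 of 30 listed genes were tested. In Pre-miR-223 against Scramble 7 were higher and 20 lower, with a median of -0.06 against -0.05 over all genes, of which 65.2% were lower. Under median centring and cyclic loess 18 were higher and 9 lower, and under repeated quantile normalization 13 and 14. At an unadjusted p under 0.05, 1 of the 27 passed and was lower, against 4.87% of all genes, 3.85% lower. Without Anti-miR-223 replicate 4 in the fit 6 passed, 5 lower and 1 higher. The shares of all genes were 9.38%, 7.64% lower and 1.74% higher. Cabin1, a subunit of the complex around Hira, had an unadjusted p under 0.05, with 4.90 ± 0.09 (SD, n = 4) in Scramble and 4.55 ± 0.17 in Pre-miR-223 and a difference of -0.35 (-0.63 to -0.06; limma, adjusted p = 0.921). Nasp, a chaperone of H3 and H4, differed by -0.04 (-0.23 to 0.15) and Asf1b, which hands over the same pair, by -0.19 (-0.46 to 0.08). Chaf1a and Chaf1b, subunits of the replication-coupled assembly factor CAF-1, differed by -0.02 (-0.31 to 0.27) and -0.30 (-0.82 to 0.23). Hira, Daxx and Atrx, which place H3.3, differed by 0.00, -0.12 and 0.14, and Asf1a and the centromere histone Cenpa by -0.07 and -0.21.

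In Anti-miR-223 against Scramble 10 of the 27 were higher and 17 lower, with a median of -0.04 against -0.01 over all genes, and none had an unadjusted p under 0.05, against 2.01% of all genes. Without replicate 4 the split was 6 higher and 21 lower, with a median of -0.14 against -0.05, and the groups of 5 genes did not overlap (1 higher, 4 lower), against 6.55% of all genes. Ubn2, another Hira partner, had the smallest p of the list, with a difference of 0.26 (-0.02 to 0.53) that was 0.14 without replicate 4. On Anti-miR-223 replicate 4 the median of the list was 0.27 relative to Scramble, and Chaf1b was at 6.23, 1.16 above the mean of the other arrays. Atrx and Cenpa lay 0.76 and 0.48 above it and Nasp differed by 0.00. In Pre-miR-223 against Anti-miR-223, 8 were higher and 19 lower with all arrays, with a median of -0.05. Without that array the split was 13 higher and 14 lower, with a median of -0.00. With all arrays, it was 16 higher and 11 lower under median centring and cyclic loess, and 12 and 15 under repeated quantile normalization.

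S phase markers were described because replication-dependent histones are made in that phase, and 24 of 26 were tested. In Pre-miR-223 against Scramble 2 were higher and 22 lower, with a median of -0.15 against -0.05 over all genes, and 3 had an unadjusted p under 0.05, all lower, against 4.87% of all genes, 3.85% lower. Of all genes tested, 65.2% had lower means. Under median centring 6 markers were higher and 18 lower, under repeated quantile normalization 4 and 20, and under cyclic loess 10 and 14. Their medians were -0.07, -0.08 and -0.03, against 0.03, -0.03 and -0.01 over all genes. Tk1, thymidine kinase, averaged 7.11 ± 0.18 (SD, n = 4) in Scramble and 6.71 ± 0.13 in Pre-miR-223, a difference of -0.40 (-0.66 to -0.14; limma, adjusted p = 0.921). Gins2, a subunit of the replicative helicase, averaged 6.00 ± 0.10 and 5.65 ± 0.22, a difference of -0.36 (-0.60 to -0.11; limma, adjusted p = 0.921), and differed by -0.28 (-0.53 to -0.04) from Anti-miR-223. Pcna, the sliding clamp of DNA polymerases, differed by -0.09 (-0.30 to 0.13).

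In Anti-miR-223 against Scramble 4 of the 24 were higher and 20 lower, with a median of -0.06 (-0.11 without replicate 4, against -0.05 over all genes). None had an unadjusted p under 0.05, against 2.01% of all genes; without replicate 4 there were 2, both lower, against 6.69% of all genes and 4.89% lower. Tk1, with the smallest p of the list, differed by -0.19 (-0.45 to 0.07). On Anti-miR-223 replicate 4 Pcna was at 9.65, which differed by -0.01 from the mean of the other arrays, and Tk1 and Gins2 lay 0.28 and 0.12 above theirs. In Pre-miR-223 against Anti-miR-223, 4 were higher and 20 lower with all arrays, with a median of -0.10, and Gins2 alone of the list had an unadjusted p under 0.05, against 3.61% of all genes. Without that array 10 were higher and 14 lower, with a median of -0.01. With all arrays, 11 were higher and 13 lower under median centring and cyclic loess, and 8 and 16 under repeated quantile normalization.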

How the data were processed

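Expression was measured on 12 Affymetrix whole-transcript arrays, 4 for each of 3 groups. The authors deposited 1 table of log2 signals, normalised before deposit. Per the submitters' processing notes the tools were RMA, Partek and Affymetrix Expression Console, with neither version nor role. No source gives the base of the logarithm, which was taken as 2, since values lay between 0.53 and 12.45; the build used is not given in the sources used here. RMA equalises the arrays' distributions, so a change in total RNA cannot be seen.

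For each gene the brightest cluster with a single symbol was kept, in a table pairing clusters with gene symbols; all 40 histone clusters matched RefSeq by gene identifier. All 14611 genes above the level were fitted in 1 model with limma 3.58.1 (R 4.3.3; lmFit and eBayes), with Benjamini-Hochberg adjustment at 0.05, two-sided; the procedure was tested on simulated data. Intervals are 95% intervals of that model, and the number of arrays limits the precision. Array medians lay between 2.21 and 2.31.

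The members and gene lists were chosen with earlier results of these data known, so lists are described by counts and medians, without a test. The named genes were all somatic variants and linker H1 genes, the 8 brightest replication-dependent genes, the 4 with the smallest p in each comparison, germline genes above the level, genes with more than 1 cluster, 15 fixed genes of the lists and each list's smallest p in each comparison. H2bc9 was added after its values were seen. Replication-dependent genes were told from variants by RefSeq's older synonyms, since newer symbols name the replication-dependent linker genes like the variants; H2ap was placed with the germline genes. Promoter windows, present for 33 members, and the microRNA sequence are from RefSeq, GRCm38.p6. Replicate numbers recur in each group but nothing says that they pair samples: deviations of same-numbered arrays correlated above 0.1 in 4 of 12 pairs (-0.50 to 0.39). Alternatives changed the scaling, the level filter, the cluster rule, the moderation, the samples fitted and the replicates.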

Additional observations from a re-analysis of the deposited data

Results flagged for a closer look

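Of 78 sets of 4 arrays examined, 12 held an array far from the other 3 by Dixon's criterion for groups of 4. For a single set chance gives about 1 in 20. The sets share the same arrays and near-identical paralogs, so they are not independent and their number is no test. The share of all genes flagged by this criterion is not given here. In 9 of the 12 that array was Anti-miR-223 replicate 4 and its value was low. The genes were H2ac10 (9.14), H2bc3 (8.71), H4f16 (7.92), H4c12 (7.43), H2ac21 (7.29), H2bc12 (5.89), H2bc18 (5.61) and H4c17 (2.90), which are 8 of the 16 replication-dependent genes named, together with the median of all replication-dependent genes relative to Scramble (-0.50). The same array was low in small nucleolar RNAs (median -1.48) and high in macrophage markers (0.51), and the part of these in the histone values was not tested.

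H1f2 was low on Anti-miR-223 replicate 2, at 4.89. H4c14 was low on Anti-miR-223 replicate 3 within its group, at 3.86, but was lower on Pre-miR-223 replicates 3 and 4 (3.54 and 3.82). H2aj was high on Pre-miR-223 replicate 2 within its group, at 4.92, but was higher on Anti-miR-223 replicates 1 and 2 (5.26 and 4.99). Each of these is 1 gene on 1 array.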

How the results depend on the processing

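No histone gene passed adjustment in any of the 3 comparisons under any of the 23 alternatives run for each. Every median difference of a class moved by less than the spread of the class median between replicates, under each of its 25 alternatives. That spread included Anti-miR-223 replicate 4, which widens it, so it is a lenient measure where Anti-miR-223 is compared. By it the replication-dependent median in Anti-miR-223 against Scramble counted as unmoved, although it went from -0.15 to 0.02 without that array. For the replication-dependent genes, leaving out 1 array in turn gave -0.06 to 0.01 in Pre-miR-223 against Scramble, -0.25 to 0.02 in Anti-miR-223 against Scramble and -0.06 to 0.23 in Pre-miR-223 against Anti-miR-223. In the last 2 the sign turned without Anti-miR-223 replicate 4 and with no other array left out. For the variants the ranges were -0.15 to -0.03, -0.28 to 0.02 and -0.17 to 0.00. Restricting to bright members moved the median of the variants above log2 4.5 in Pre-miR-223 against Scramble to -0.20 and that of the replication-dependent genes above log2 5 in Pre-miR-223 against Anti-miR-223 to 0.23. Median centring changed the share of all tested genes that were lower in Pre-miR-223 than in Scramble from 65.2% to 43.0% and turned the split of replication-dependent genes to 12 higher and 9 lower, with a median of 0.07. The replicate number as a block left the class medians at -0.01 and -0.09 in Pre-miR-223 against Scramble and called 0 histone genes. Nothing says that the numbers pair the samples. The difference changed sign under at least 1 alternative for many of the 44 genes named by rule. These were 22 in Pre-miR-223 against Scramble, 24 in Anti-miR-223 against Scramble and 24 in Pre-miR-223 against Anti-miR-223. Dim members, with signals near the level required for testing, limit what can be seen. Their differences were not all small, since H2ac1 differed by 0.49 in Anti-miR-223 against Scramble. The alternatives restricted to members above log2 5 or 4.5, or counting linker genes with the variants, were chosen after seeing the data.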
